A study of Homo sapiens with 4 samples.

Results

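The genes described here copy the genome or open S phase. They are 45 genes chosen by symbol: the licensing factors and MCM helicase subunits, the origin firing factors, the replicative polymerases with their clamp and clamp loader, the enzymes of deoxynucleotide supply, the histone and methylation factors of replicating chromatin, and the regulators of the step from G1 into S. All 45 were found among the 18239 genes named by a probe set with 1 gene symbol, and they were read by 114 probe sets. The arrays hold RNA of PC9, an established line from a human lung adenocarcinoma that depends on mutant EGFR, and of MTAC-P, a resistant lung cancer line that, per the labels, was raised by mild exposure to a tyrosine kinase inhibitor (TKI). Each line had 2 arrays of total RNA, called duplicates with no word on whether the cultures were separate, and p-values therefore measure only the spread between these arrays, which may be technical. Both lines were grown in DMEM with serum, and the inhibitor, its dose, the line MTAC-P was derived from and the presence of drug at collection are not given in the labels. The comparison asks which of these genes differ between the resistant line and PC9.

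A chromosome is copied once per cycle because loading and firing of origins are kept apart. In G1 the origin recognition complex (ORC), CDC6 and CDT1 load the ring of MCM2, MCM3, MCM4, MCM5, MCM6 and MCM7 onto DNA. In S phase the CDC7 kinase with its activating subunit DBF4, and the cyclin-dependent kinases, turn the ring into a working helicase with CDC45 and the GINS complex, after which DNA polymerases alpha, delta and epsilon copy the strands. Most of the genes are transcribed in a wave near the G1/S boundary under E2F factors, while many G2/M genes are read later through a promoter element called the cell cycle homology region (CHR). Both PC9 and MTAC-P are proliferating tumour lines, so all of these genes can be active in both.

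Values are log2 expression values of the deposited table, 1 per probe set and array. The brightest probe set of a gene, by its mean over the 4 arrays, stood for the gene, and all 45 genes had a mean above 4.14, the 25th percentile of all probe set means, under which genes were left out as dim. The array medians ranged from 4.85 to 4.88. The 6 epithelial markers had means from 10.6 to 14.4, all well above the dim value. The 5 fibroblast markers had means from 3.75 to 4.76, at or near the dim value. Among leukocyte markers PTPRC ranged from 3.94 to 4.04, LYZ from 3.9 to 4.3 and CD3E from 4.41 to 5.13, while CD68 ranged from 8.90 to 9.36. The 4 endothelial markers had means from 4.26 to 5.34, all above the dim value. ACTB, whose 3' control probe set is compared with its 5' one as a sign of RNA integrity and labelling, had a log2 excess at the 3' end of 1.72 and 2.49 in PC9 and of 1.51 and 1.75 in MTAC-P, so the lines overlapped. GAPDH, read the same way, gave -0.057 and 0.038 in PC9 and -0.090 and -0.069 in MTAC-P. The mean of the poly-A spike-in controls was 6.79 and 7.11 in PC9 and 7.52 and 7.62 in MTAC-P. The GAPDH comparison and the spike-ins thus each separated the lines without overlap. Their part in the differences of the genes described here was not tested. In RNA from whole cultures a smaller share of cells in S phase and less RNA per cell cannot be told apart.

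The promoters of the genes are shown first because the E2F and CHR elements are what separates the G1/S wave from the G2/M wave in textbook accounts. Promoters were taken from RefSeq (build GRCh38.p14), 250 bases before to 50 bases after the annotated start, and 41 of the 45 genes had an entry. The sequences below are those of ORC1 (chr1:52404394-52404673, minus strand), CDT1 (chr16:88803539-88803818, plus strand), MCM2 (chr3:127598161-127598440, plus strand), DBF4 (chr7:87876243-87876522, plus strand) and POLE2 (chr14:49688185-49688464, minus strand). ORC1, CDT1 and MCM2 were among the genes with the higher values in MTAC-P, and DBF4 and POLE2 among those with the lower values. Each is printed from 250 bases before to 30 bases after the start, read along the gene, with capitals for an E2F word (TTTCCCGC, TTTGGCGC, TTTCGCGC or TTTGCCGC) or for the CHR word TTTGAA, on either strand.
ORC1: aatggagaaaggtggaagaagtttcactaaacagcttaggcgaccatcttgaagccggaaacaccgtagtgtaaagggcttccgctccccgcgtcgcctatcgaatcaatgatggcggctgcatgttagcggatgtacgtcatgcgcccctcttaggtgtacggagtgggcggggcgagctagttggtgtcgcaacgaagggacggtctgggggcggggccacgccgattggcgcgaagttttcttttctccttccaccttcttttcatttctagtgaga
CDT1: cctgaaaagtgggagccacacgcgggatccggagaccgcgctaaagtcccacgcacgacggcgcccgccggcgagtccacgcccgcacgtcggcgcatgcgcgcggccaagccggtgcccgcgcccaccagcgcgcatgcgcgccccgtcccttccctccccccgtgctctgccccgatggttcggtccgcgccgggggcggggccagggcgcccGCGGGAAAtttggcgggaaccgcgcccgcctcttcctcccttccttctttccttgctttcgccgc
MCM2: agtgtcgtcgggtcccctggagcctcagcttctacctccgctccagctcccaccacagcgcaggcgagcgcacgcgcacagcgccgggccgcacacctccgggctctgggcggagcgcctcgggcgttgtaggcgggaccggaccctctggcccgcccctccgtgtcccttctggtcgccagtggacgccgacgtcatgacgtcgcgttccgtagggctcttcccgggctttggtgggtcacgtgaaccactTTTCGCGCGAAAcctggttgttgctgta
DBF4: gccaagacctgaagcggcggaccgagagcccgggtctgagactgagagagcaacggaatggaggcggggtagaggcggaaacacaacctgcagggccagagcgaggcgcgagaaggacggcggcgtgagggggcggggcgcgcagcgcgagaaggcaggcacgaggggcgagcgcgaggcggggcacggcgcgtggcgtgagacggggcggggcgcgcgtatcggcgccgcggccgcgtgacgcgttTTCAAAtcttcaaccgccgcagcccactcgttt
POLE2: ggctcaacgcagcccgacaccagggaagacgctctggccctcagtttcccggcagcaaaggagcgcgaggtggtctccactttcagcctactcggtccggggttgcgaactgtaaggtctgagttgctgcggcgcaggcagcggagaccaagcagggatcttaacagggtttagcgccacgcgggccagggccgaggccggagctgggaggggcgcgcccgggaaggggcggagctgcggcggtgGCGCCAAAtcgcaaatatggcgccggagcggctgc

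The E2F words of MCM2 lie at base 3 of the transcript on the gene's strand and at base 7 on the other strand, so that they overlap as TTTCGCGCGAAA. In CDT1 the word begins 35 bases before the start and in POLE2 5 bases before it, both on the other strand. DBF4 had no E2F word but held TTTGAA on the other strand 3 bases before the start, and ORC1 held neither word in its window. A word that is absent says only that these letters are not in this window.

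E2F words were found in 20 of the 41 promoters, 48.8%, against 3.33% of all 27305 promoters of this length. The CHR word TTTGAA was found in 2 of 41, those of DBF4 and RRM1, or 4.88%, against 15.4% of all promoters. Among 24 promoters of G2/M genes the shares were the other way round, with E2F words in 3 and the CHR word in 18. The third element searched, CCAAT, the core of the NF-Y box, was in 48.8% of the 41 promoters, in 83.3% of the G2/M promoters and in 35.7% of all promoters. Divided by the sign of their log2 difference, 15 of the 27 genes higher in MTAC-P and 5 of the 14 lower ones held an E2F word, and 0 of 27 and 2 of 14 held the CHR word. No gene of the 45 passed the test between the lines, as described next, so this division is a description.

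**Figure D1:**
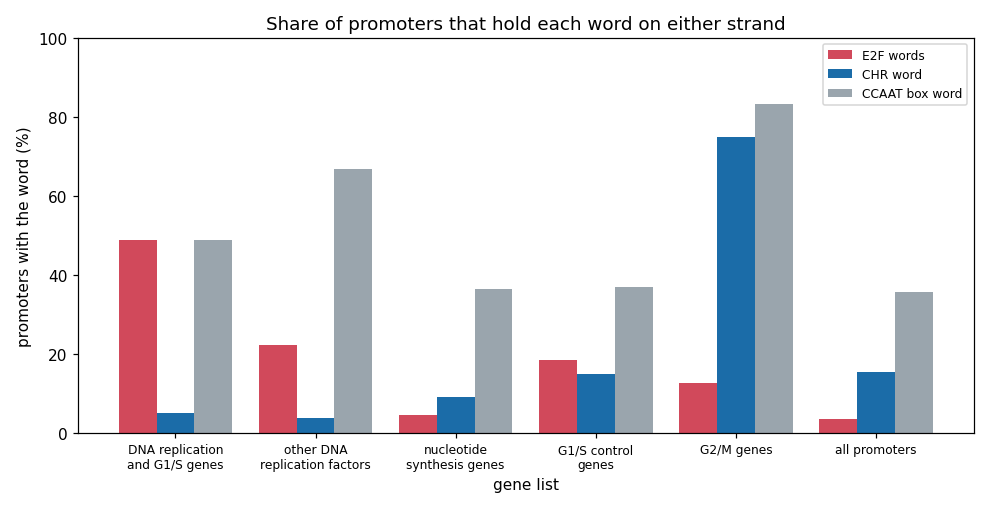
Share of RefSeq promoters, in percent on the vertical axis, that hold an E2F word (red), the CHR word (blue) or CCAAT (grey) on either strand. Shown are the 41 DNA replication and G1/S genes with a promoter entry, 4 further gene lists and all promoters. E2F words reach 48.8% in the DNA replication and G1/S genes, and the CHR word is in 18 of the 24 promoters of G2/M genes.

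The genes of DNA replication and G1/S did not differ in 1 direction between the lines. Of the 45, 29 had a higher mean in MTAC-P (64.4%, against 53.8% of all tested genes) and 16 a lower one. The median log2 difference (MTAC-P minus PC9) was 0.12, against 0.031 over all 14970 tested genes. ORC1 was the highest, 1.97-fold above PC9, and CCNE2 the lowest, 1.58-fold below it. Higher values were found for GINS4, CDT1, MCM2 and CDC45 and lower values for CDC7, POLE2, DBF4 and POLA1. With the test fitted across all genes, 0 of the 45 passed limma's adjusted p of 0.05, a level reached by 0.02% of all tested genes, and the lowest adjusted p was 0.112, for ORC1. At an unadjusted limma p under 0.05 there were 5 genes higher and 4 lower, where 7.76% and 11.1% of all tested genes were. Leaving out PC9 replicate 1 gave a median of 0.035, and leaving out PC9 replicate 2 gave 0.070. It was 0.13 when MTAC-P replicate 1 was left out and 0.073 when MTAC-P replicate 2 was.

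The MTAC-P arrays both lay above the PC9 arrays for 14 of the 45 genes, 31.1%, against 28.3% of all tested genes. Both lay below them for 12 of the 45, 26.7%, against 24.9%. Neither share stood far from its background, so the counts say nothing particular about these genes. Log2 differences of 0.5 or more were seen upward in 5 genes, 11.1%, against 5.85% of all tested genes, and downward in 5 genes, 11.1%, against 10.8%. In 18 of the 45 the distance between the line means was larger than the distance between the duplicates of either line, as it was in 38.5% of all tested genes, again a share near the background. Leaving out 1 array moved the difference by over 1.5 times, without a turn of sign, in 14 to 23 of the 45 genes, depending on the array. With 2 arrays against 2, an exact permutation test of a single gene cannot give a 2-sided p below 0.333.

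**Figure D2:**
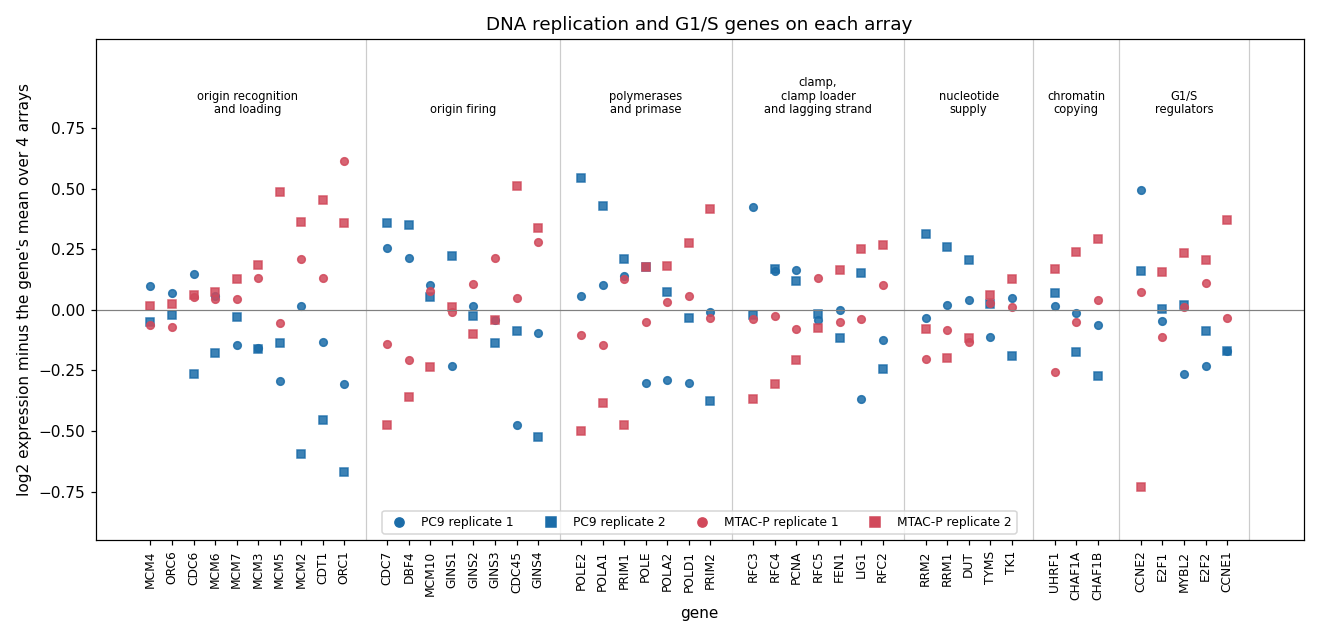
Log2 expression of each of the 45 genes on each array minus the gene's own mean over the 4 arrays, grouped by role and ordered within a role by the difference between the lines; circles are replicate 1, squares replicate 2, blue PC9 and red MTAC-P. Among genes with an absolute difference of 0.5 or more, red points lie above blue ones in ORC1, CDT1, MCM2, CDC45 and GINS4. They lie below them in CDC7, DBF4, POLE2, POLA1 and CCNE2. Counting smaller differences too, red lies above blue in 14 of the 45 genes and below it in 12.

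In origin recognition and loading, 8 of 10 genes had higher values, against 53.8% of all tested genes, and the median log2 difference was 0.25. In 6 of the 10 both MTAC-P arrays lay above both PC9 arrays, against 28.3% of all tested genes. Among the G1/S regulators the share of higher genes was the same, 4 of 5, and the median was also 0.25. ORC1, the largest subunit of the complex that marks origins, read 8.38 and 8.02 in PC9 and 9.31 and 9.05 in MTAC-P. Both MTAC-P arrays of ORC1 were thus above both PC9 arrays. The log2 difference of ORC1 was 0.98 (SE 0.19, 95% interval 0.51 to 1.45, limma adjusted p = 0.112), and it stayed between 0.80 and 1.16 when any 1 array was left out. ORC1 has a single probe set, whose name carries the ending for probes shared with other sequences, so it has no second reading in this table. ORC6, the smallest subunit, differed by -0.046 with overlapping arrays.

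CDT1, which brings the MCM ring to origins and is destroyed in S phase, read 9.59 and 9.27 in PC9 and 9.85 and 10.17 in MTAC-P. The groups did not overlap, and the log2 difference was 0.59 (SE 0.20, 95% interval 0.11 to 1.06, limma adjusted p = 0.198). The other 2 probe sets of CDT1 differed by 0.20 and 0.27, so the gene is higher on all 3 but by less on the dimmer ones. CDC6, the ATPase that works beside CDT1, read 9.53 and 9.12 in PC9 and 9.43 and 9.44 in MTAC-P. The MTAC-P arrays of CDC6 lay between the PC9 arrays, and the difference of 0.11 turned to -0.093 without PC9 replicate 2.

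The 6 subunits of the MCM2 to MCM7 ring did not share 1 size of difference. MCM2 read 10.82 and 10.21 in PC9 and 11.02 and 11.17 in MTAC-P, a log2 difference of 0.58 (SE 0.23, 95% interval 0.018 to 1.13, limma adjusted p = 0.254). PC9 replicate 2 was the low array of MCM2, as it was for CDC6 and GINS4, and without it the difference was 0.27. All 4 probe sets of MCM2 had non-overlapping arrays and differed by 0.58 to 0.71. MCM3 read 10.19 on both PC9 arrays and 10.49 and 10.54 in MTAC-P, a difference of 0.32 (SE 0.15, limma adjusted p = 0.309) that ranged from 0.29 to 0.35 when any 1 array was left out.

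The log2 differences of the remaining ring subunits ran from -0.047 to 0.43. MCM7 read 12.69 and 12.80 in PC9 and 12.88 and 12.96 in MTAC-P, without overlap on any of its 4 probe sets. Its log2 difference was 0.17 (SE 0.15), the lowest of the 4 probe sets, which reached 0.56. MCM5 read 5.07 and 5.22 in PC9 and 5.31 and 5.85 in MTAC-P, a difference of 0.43 on a single probe set whose levels were not far above the dim value. The difference of MCM5 was 0.16 without MTAC-P replicate 2 and 0.70 when replicate 1 of MTAC-P was dropped. MCM6 read 10.09 and 9.85 in PC9 and 10.08 and 10.10 in MTAC-P, and its 3 probe sets ranged from -0.46 to 0.64. MCM4 read 10.08 and 9.93 in PC9 and 9.92 and 10.00 in MTAC-P, an overlap with a difference of -0.047. The sign of MCM4 was positive with the mean of its 4 probe sets, at 0.15.

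Of the 8 genes of origin firing, 5 were higher and 3 lower in MTAC-P, with a median log2 difference of 0.0068. CDC7, the catalytic subunit of the kinase that fires origins, read 8.03 and 8.14 in PC9 and 7.64 and 7.31 in MTAC-P. Its arrays did not overlap, and the log2 difference was -0.61 (SE 0.18, 95% interval -1.04 to -0.18, limma adjusted p = 0.160). The other 2 probe sets of CDC7, with means of 5.71 and 5.28, differed by 0.098 and 0.41, so the lower value rests on the brightest probe set, and the mean of all 3 differed by -0.035. DBF4, the subunit that activates CDC7, read 8.79 and 8.92 in PC9 and 8.37 and 8.21 in MTAC-P. The log2 difference of DBF4 was -0.56 (SE 0.16, 95% interval -0.95 to -0.18, limma adjusted p = 0.154), and leaving out any 1 array kept it between -0.64 and -0.49. DBF4 had the most probe sets, 7, and on all 7 both MTAC-P arrays lay below both PC9 arrays, with differences from -0.98 to -0.42.

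GINS4 and CDC45, which join the MCM ring to form the moving helicase, had higher values in MTAC-P. GINS4 read 9.52 and 9.10 in PC9 and 9.90 and 9.96 in MTAC-P, a log2 difference of 0.62 (SE 0.19, 95% interval 0.15 to 1.08, limma adjusted p = 0.177). Of the 4 probe sets of GINS4, 3 had arrays that did not overlap, and all 4 were higher in MTAC-P, by 0.28 to 0.78. Without PC9 replicate 2 the difference of GINS4 was 0.40. CDC45 read 8.46 and 8.85 in PC9 and 8.99 and 9.45 in MTAC-P, a difference of 0.56 (SE 0.23, 95% interval 0.018 to 1.11, limma adjusted p = 0.254). Without MTAC-P replicate 2 it was 0.33. All 3 probe sets of CDC45 were free of overlap, and the other 2 differed by 0.91 and 0.92, more than the one with the highest mean. On their brightest probe sets the partners of GINS4 in the GINS complex differed little. GINS1 differed by 0.0049, GINS2 by 0.0086 and GINS3 by 0.18, each with overlapping arrays. The other 2 probe sets of GINS1, both dimmer, were higher in MTAC-P without overlap, by 0.31 and 0.46. The mean of all 3 differed by 0.26. MCM10, which helps to open the loaded helicase, differed by -0.16, and its other 2 probe sets were higher in MTAC-P.

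Among the polymerases, 4 of 7 genes were higher and 3 lower, and subunits of 1 enzyme lay on both sides. POLA1, the catalytic subunit of DNA polymerase alpha, read 8.76 and 9.09 in PC9 and 8.51 and 8.27 in MTAC-P, a log2 difference of -0.53 (SE 0.19, limma adjusted p = 0.215). POLE2, an accessory subunit of polymerase epsilon, read 9.41 and 9.90 in PC9 and 9.25 and 8.86 in MTAC-P. The difference of POLE2 was -0.60 (SE 0.23, limma adjusted p = 0.237), and it was -0.36 without PC9 replicate 2. Both genes had non-overlapping arrays and a single probe set each. POLA2, which pairs with POLA1, differed by 0.22, and POLE, the catalytic partner of POLE2, by 0.13, both with overlap. Of the primase subunits, which lay down the RNA primers, PRIM1 differed by -0.35 without overlap and PRIM2 by 0.38 with overlap, and without MTAC-P replicate 2 the difference of PRIM1 was -0.050. POLD1, the catalytic subunit of polymerase delta, differed by 0.33 with non-overlapping arrays.

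The sliding clamp and its loader showed the same mixture. PCNA, the clamp that holds polymerases on DNA, read 12.93 and 12.89 in PC9 and 12.69 and 12.56 in MTAC-P, a log2 difference of -0.29 (SE 0.15, 95% interval -0.66 to 0.088, limma adjusted p = 0.364). Its arrays did not overlap, and its second probe set differed by -0.33. Of the clamp loader subunits, RFC2 differed by 0.37, RFC5 by 0.056, RFC4 by -0.33 and RFC3 by -0.40, and the arrays overlapped for RFC5 alone among these. The 4 probe sets of RFC3 ranged from -0.40 to 0.43. FEN1, the nuclease that trims Okazaki fragments, differed by 0.12, and LIG1, the ligase that joins them, by 0.22, both with overlapping arrays. All 3 probe sets of FEN1 were higher in MTAC-P, by 0.088 to 0.17, and all 6 of LIG1, by 0.027 to 0.59. The difference of LIG1 turned to -0.044 without PC9 replicate 1.

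Nucleotide supply was the role with the lowest median, -0.25, with 3 of 5 genes lower. RRM2, the S-phase subunit of ribonucleotide reductase, read 11.79 and 12.14 in PC9 and 11.62 and 11.74 in MTAC-P, a log2 difference of -0.28 (SE 0.18, 95% interval -0.72 to 0.16, limma adjusted p = 0.440), and its other probe set differed by -0.037. Without PC9 replicate 2 the difference of RRM2 was -0.11. RRM1, the large subunit, differed by -0.28, with 5 probe sets from -0.28 to 0.30. DUT, which removes dUTP, differed by -0.25, and all 4 of its probe sets were lower, by as much as -0.59. RRM1, RRM2 and DUT were lower without overlap, as were 24.9% of all tested genes. TYMS, which makes thymidylate and is a drug target, read 11.72 and 11.86 in PC9 and 11.86 and 11.90 in MTAC-P, a difference of 0.091 (95% interval -0.28 to 0.46). TK1, the thymidine salvage kinase, differed by 0.14 with overlap.

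Of the chromatin factors, CHAF1A and CHAF1B, subunits of the CAF-1 histone chaperone, differed by 0.19 and 0.33, the second without overlap. UHRF1, which carries DNA methylation over to the new strand, differed by -0.087 and turned to 0.13 without MTAC-P replicate 1.

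Of the 5 regulators of G1/S, E2F2 and CCNE1 were higher and CCNE2 lower without overlap, and E2F1 and MYBL2 had overlapping arrays. Over all tested genes 28.3% were higher and 24.9% lower without overlap. E2F1, an activator of S-phase genes, read 8.13 and 8.18 in PC9 and 8.07 and 8.34 in MTAC-P, a difference of 0.044 (95% interval -0.36 to 0.45). E2F2 read 7.42 and 7.56 in PC9 and 7.76 and 7.85 in MTAC-P, a difference of 0.32 (SE 0.16, limma adjusted p = 0.331), and its other probe set, close to the dim value, differed by -0.020. CCNE1, which activates CDK2 at the G1/S boundary, read 8.55 and 8.56 in PC9 and 8.69 and 9.09 in MTAC-P, a difference of 0.34 (SE 0.19, limma adjusted p = 0.372) that was 0.14 without MTAC-P replicate 2. CCNE2, the second E cyclin, read 8.76 and 8.43 in PC9 and 8.34 and 7.54 in MTAC-P. The log2 difference of CCNE2 was -0.66 (SE 0.29, 95% interval -1.35 to 0.032, limma adjusted p = 0.282), and it ranged from -1.06 without MTAC-P replicate 1 to -0.26 without MTAC-P replicate 2. Neither E cyclin had overlapping arrays, and both probe sets of each had the same sign. MYBL2, a partner of the cell cycle complexes that read CHR promoters, differed by 0.25 with overlap.

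Other probe sets allow a check of these readings, although probe sets of 1 gene share the same RNA and are not replicates. Of the 114 probe sets, 110 had means above the dim value. Among the 31 genes with 2 or more such probe sets, 23 had the same sign on all of them. DBF4, MCM2, CDC45 and GINS4 belong to these, whereas CDC7, MCM6, RFC3 and RRM1 have probe sets of both signs. When probe sets with an ending for shared probes (_x_at and _s_at) were left out, 42 genes could be read. Their median log2 difference was 0.10 and 26 were higher in MTAC-P. The signs of MCM4 and E2F2 turned, to 0.18 and -0.020.

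**Figure D3:**
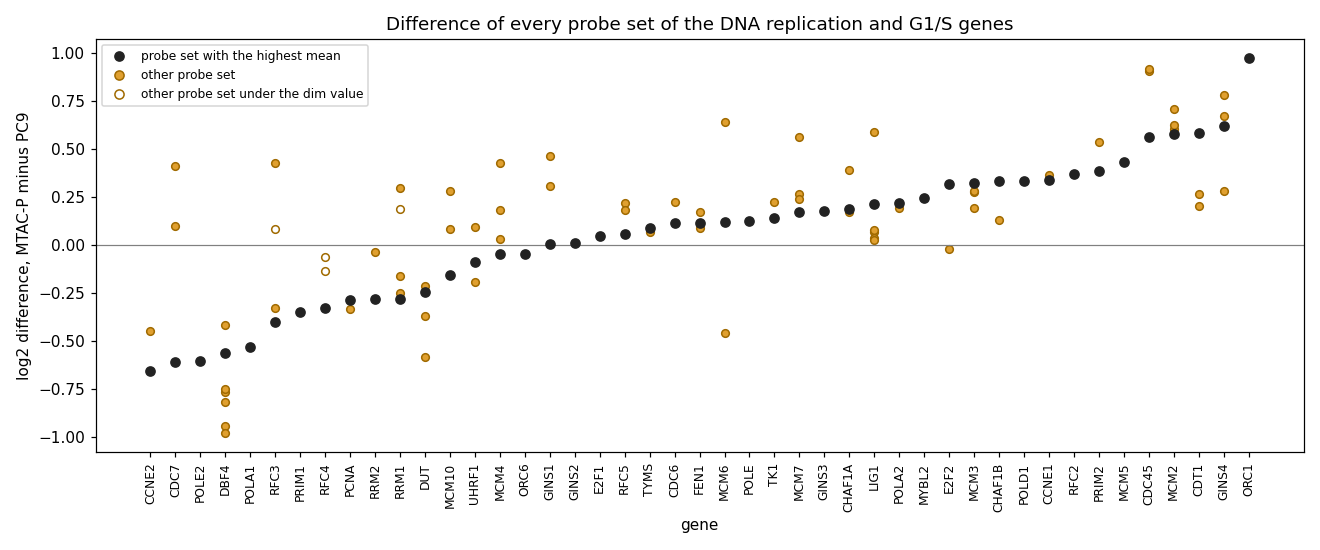
Log2 difference between MTAC-P and PC9 (vertical axis) for every probe set of each of the 45 genes, ordered by the probe set with the highest mean (black); filled amber points are other probe sets above the dim value of 4.14 and open points those under it. The 7 points of DBF4 all lie below 0 and those of CDC45, MCM2 and GINS4 all lie above it, while MCM6 and CDC7 have points on both sides.

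Other replication factors, which the 45 do not include, were lower more often than higher. In MTAC-P 23 of 34 such genes were lower and 11 higher (32%, against 53.8% of all tested genes). The median log2 difference was -0.19, and 0 passed limma's adjusted p. At an unadjusted limma p under 0.05 there were 1 higher (2.94%) and 7 lower (20.6%), against 7.76% and 11.1% of all tested genes. TOPBP1, a scaffold needed for CDC45 loading and checkpoint signalling, read 9.69 on both PC9 arrays and 8.83 and 8.79 in MTAC-P, a difference of -0.88 (SE 0.15, limma adjusted p = 0.102). ORC3, a further origin recognition subunit, differed by -0.95 (SE 0.31), with MTAC-P replicate 2 at 7.31 and replicate 1 at 8.27, and without MTAC-P replicate 2 its difference was -0.47. WDHD1, which links polymerase alpha to the helicase, differed by -0.80 (SE 0.16). RPA2, a subunit of the single-strand binding protein RPA, was the highest at 0.52 (SE 0.18), followed by the fork protection factor TIMELESS at 0.37 and the histone chaperone ASF1B at 0.33. The other probe set of TIMELESS differed by -0.32, and the mean of both by 0.025. The difference of RPA2 was 0.34 without MTAC-P replicate 2. The median of this list was -0.048 without MTAC-P replicate 2.

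Of 32 tested G1/S control genes, 17 were higher (53.1%, against 53.8% of all tested genes) and 15 lower. Their median log2 difference of 0.029 turned negative with any array left out other than MTAC-P replicate 1. It did so too when the probe sets of each gene were averaged. The highest were SKP2, a ubiquitin ligase subunit that degrades p27, at 0.58 (SE 0.21), the phosphatase CDC25A at 0.44 and CKS1B, the cofactor of SKP2, at 0.43. The lowest were E2F8, a repressor of the E2F wave, at -0.90 (SE 0.18, limma adjusted p = 0.112), RB1, the retinoblastoma protein, at -0.71 (SE 0.22) and its relative RBL2 at -0.66 (SE 0.19). E2F8 read 9.20 and 9.52 in PC9 and 8.54 and 8.37 in MTAC-P, and all 3 of its probe sets were lower. The probe sets of RB1 and RBL2 included some of the opposite sign. SKP2 differed by 0.35 without MTAC-P replicate 2 and RB1 by -0.43 without PC9 replicate 2. None of the 32 passed limma's adjusted p. At an unadjusted limma p under 0.05 there were 5 higher (15.6%) and 7 lower (21.9%), against 7.76% and 11.1% of all tested genes.

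Of 21 tested genes of nucleotide synthesis, 15 were higher (71.4%, against 53.8% of all tested genes) and 6 lower. The median log2 difference was 0.13, and 0 passed limma's adjusted p. At an unadjusted limma p under 0.05 there were 2 higher (9.52%) and 4 lower (19%), against 7.76% and 11.1% of all tested genes. The purine synthesis genes GART and ADSL differed by 0.41 and 0.40 and the thymidylate kinase gene DTYMK by 0.28. The purine synthesis genes PPAT and PAICS differed by -0.44 and -0.45. RRM2B, the p53-induced subunit of ribonucleotide reductase, differed by -1.34 (SE 0.50), with MTAC-P replicate 2 at 5.53 and replicate 1 at 7.18. Without MTAC-P replicate 2 the difference of RRM2B was -0.52, and the mean of its 9 probe sets differed by -0.21. For the whole list the median was 0.034 without PC9 replicate 2.

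The G2/M genes, which follow in the cycle, had the lowest median of the lists, -0.32, with 23 of 30 lower in MTAC-P. The share of higher genes was 23.3%, against 53.8% of all tested genes. For 17 of the 30, or 56.7%, both MTAC-P arrays lay below both PC9 arrays, against 24.9% of all tested genes and 26.7% of the DNA replication and G1/S genes. Log2 differences of -0.5 or lower were found in 46.7% of G2/M genes, 11.1% of the DNA replication and G1/S genes and 10.8% of all tested genes. CDK1, the mitotic kinase, differed by -1.24 (SE 0.25, limma adjusted p = 0.112), CENPE, a kinetochore motor, by -1.18 and the checkpoint kinase TTK by -1.08, whereas CDC20, AURKB and BIRC5 were the highest at 0.35, 0.22 and 0.19. The 3 probe sets of CDK1 lay between -1.24 and 0.34, with a difference of -0.68 for their mean, and the 3 of CDC20 ranged from -0.29 to 0.58. TTK differed by -0.58 without MTAC-P replicate 2, AURKB by 0.052 without PC9 replicate 1 and BIRC5 by 0.064 without PC9 replicate 2. Of the 30, 0 passed limma's adjusted p. At an unadjusted limma p under 0.05 there were 12 lower (40%) and 0 higher, against 11.1% and 7.76% of all tested genes. The difference between the lists was not tested. The G2/M median was -0.57 without PC9 replicate 1 and -0.52 without MTAC-P replicate 1, and with MTAC-P replicate 2 left out it was -0.15. After each gene was centred on its mean over the 4 arrays, the median G2/M level was 0.11 and 0.31 in PC9 and -0.022 and -0.38 in MTAC-P, and MTAC-P replicate 2 was thus the lowest array. The same medians of the DNA replication and G1/S genes were -0.013 and -0.023 in PC9 and 0.011 and 0.13 in MTAC-P.

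**Figure D4:**
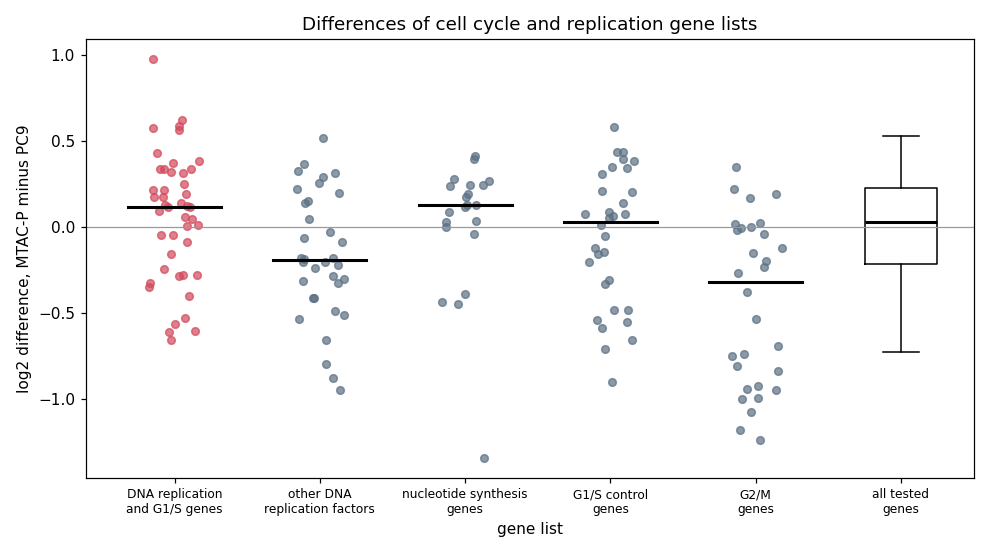
Log2 difference between MTAC-P and PC9 (vertical axis) of each tested gene in the DNA replication and G1/S genes (red) and 4 further lists (grey), with bars at the medians; the box shows the quartiles and median of all 14970 tested genes and its whiskers the 5th and 95th percentiles. The median is 0.12 for the DNA replication and G1/S genes, -0.32 for the G2/M genes and 0.031 for all tested genes.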

How the data were processed

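Total RNA of 2 PC9 and 2 MTAC-P arrays was compared. The authors deposited log2 expression values for every probe set on each array; nothing states the scale, and log2 was taken from their range, 3.32 to 14.6. Agilent Feature Extraction 10.7 is named, per the submitters' processing notes, and a Cy3 labelling kit, per the labels' protocols, whereas the probe-set names are of Affymetrix type; normalization and summarization are not given in the sources used here, and there are no detection calls. Values were used without further scaling. Of 49386 probe sets, 45253 had 1 gene symbol in GEO's platform annotation, 1327 several and 2713 none, and 93 were controls. Symbols were updated by gene identifier (GRCh38.p14). Genes under the 25th percentile of probe set means (3269) were left out. The other 14970 were tested with limma 3.58.1 in R 4.3.3 (lmFit, eBayes, 2-sided, Benjamini-Hochberg over all tested genes, threshold 0.05). The step was tested on simulated data with noise independent between arrays, which do not cover deviations shared by same-numbered arrays. SE and 95% intervals are limma's moderated ones. The number of arrays limits the precision.

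The genes and lists were chosen with earlier results of these data known. Values on every array are given for the MCM2 to MCM7 genes, CDT1, CDC6, E2F1, E2F2, CCNE1, CCNE2, PCNA, RRM2, TYMS and genes with an absolute log2 difference of 0.5 or more, and the 3 highest and 3 lowest genes of each further list are named; values on every array of TOPBP1, E2F8 and RRM2B (MTAC-P only) and the choice of printed promoters came after the values were seen. List genes with no probe set of 1 symbol were not analysed here. Other settings tried were a replicate block, an unmoderated test, a robust prior or a variance trend, centring arrays at their median or 75th percentile, quantile normalization, averaging a gene's probe sets, a dim filter at the 50th percentile or none, adding a pseudocount of 16, dropping each array and thresholds of 0.01 and 0.10. Leaving out _x_at and _s_at probe sets was chosen after seeing the data. Python 3.11.15 with matplotlib 3.10.9 drew the figures.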

Additional observations from a re-analysis of the deposited data

How the results depend on the processing

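The count of 0 passing genes among the 45 held under every alternative run except the replicate block, and the median log2 difference stayed positive throughout, between 0.10 and 0.15 under the alternatives that kept all arrays and between 0.035 and 0.13 when 1 array was left out. The number of the 45 higher in MTAC-P stayed between 26 (of the 42 read without shared probe sets) and 31. Among all tested genes the count past limma's adjusted p, 3 as reported, was 1 with the 50th percentile filter, with the pseudocount and without shared probe sets, 0 with the mean of all probe sets and in the unmoderated test, 77 with a variance trend, 0 at a threshold of 0.01 and 124 at 0.10, and from 0 to 68 when 1 array was left out.

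The duplicates share only a number in the labels. With that number as a replicate block, 2079 of all 14970 tested genes passed, and so did 9 of the 45. The 9 were ORC1, CDT1, MCM2, CDC7, DBF4, CDC45, GINS4, POLE2 and CCNE2. In the further lists 0 genes passed without the block. The block gave 4 of 34 other replication factors (among them TOPBP1, WDHD1 and ORC3) and 7 of 32 G1/S control genes (among them SKP2, RBL2, RB1 and E2F8). It also gave 1 of 21 nucleotide synthesis genes (RRM2B) and 13 of 30 G2/M genes (among them CDK1, CENPE and TTK). Same-numbered arrays deviated from their line means with a correlation of 0.28 across genes, and the block leaves 1 residual degree of freedom against 2.

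Signs turned with the mean of all probe sets for MCM4 (0.15) and MCM10 (0.069), with median centring for GINS1 (-0.0096) and GINS2 (-0.0059), and without shared probe sets for MCM4 (0.18) and E2F2 (-0.020). When 1 array was left out they turned for ORC6 (-0.094 to 0.0028), CDC6 (-0.093 to 0.32), MCM4 (-0.12 to 0.027), GINS1 (-0.22 to 0.23), GINS2 (-0.095 to 0.11), POLE (-0.11 to 0.37), RFC5 (-0.047 to 0.16), LIG1 (-0.044 to 0.48), UHRF1 (-0.30 to 0.13) and E2F1 (-0.089 to 0.18). The cause was not tested.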
